A study of Mus musculus with 5 samples.

Results

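Expression of 9 pituitary lineage factors was examined in embryonic mouse pituitary (e12.5), with Pomc, Tbx19 and Neurod1 for the corticotroph lineage, Pou1f1 and Neurod4 for the Pou1f1 lineage, Foxl2, Gata2 and Nr5a1 for the gonadotroph lineage, and Insm1 for endocrine cells in general. The genes were taken by name from a table of 20097 gene names. All 9 were found, each with 1 counted region that overlapped no other listed region, and all 9 passed the filter on low values. The first 2 libraries came from embryos labelled Itgb1 f/f; Pitx1-cre, called knockout libraries 13 and 16. The other 3 libraries came from littermates labelled Itgb1 f/f and titled WT, with no Cre named, called control libraries 9, 10 and 12. Embryos of both genotypes were of mixed B6;129 background and carried the floxed Itgb1 alleles. Itgb1 encodes integrin beta 1, a shared subunit of receptors for extracellular matrix, and Pitx1-cre acts in the oral ectoderm and the pituitary derived from it. Cells outside that domain keep the gene. The labels name separate biological replicates and describe the material as epithelial pituitary cells. Levels are the deposited tags per 10000000 total tags of a library.

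The anterior pituitary arises from Rathke's pouch, an outgrowth of oral ectoderm whose progenitors leave the cell cycle and take up hormone-producing fates. Corticotrophs are the first to differentiate. They make Pomc, the precursor of adrenocorticotropin, under the T-box factor Tbx19 and, early on, the basic helix-loop-helix factor Neurod1. Pou1f1, a POU homeodomain factor, then drives the somatotroph, lactotroph and thyrotroph lineages. Gata2 and Foxl2 act in gonadotrophs and partly in thyrotrophs, and Nr5a1 acts in gonadotrophs. In mice, Insm1, a zinc finger factor, is needed for endocrine differentiation across these lineages.

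The starts of Pomc and Pou1f1 are shown because other members, or the gene's own protein, are known to act on them. The sequences are those of RefSeq for build GRCm38.p6 on the plus strand, from 250 bases before to 50 after the start, and 7 of the 9 members had an entry. Pomc lies at chr12:3954695-3954994 and Pou1f1 at chr16:65520262-65520561. Capitals in Pomc mark E-boxes (CANNTG, bound by factors of the Neurod family) and a match to AAGGTCA, a letter pattern known for Nr5a1 and related receptors. Capitals in Pou1f1 mark TATNCAT, a pattern known for Pou1f1 itself.
Pomc: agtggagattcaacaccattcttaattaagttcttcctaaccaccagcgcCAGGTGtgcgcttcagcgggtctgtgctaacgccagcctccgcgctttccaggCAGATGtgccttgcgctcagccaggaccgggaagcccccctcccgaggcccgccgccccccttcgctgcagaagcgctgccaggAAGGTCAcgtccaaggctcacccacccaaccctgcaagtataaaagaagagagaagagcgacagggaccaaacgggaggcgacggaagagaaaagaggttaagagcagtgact
Pou1f1: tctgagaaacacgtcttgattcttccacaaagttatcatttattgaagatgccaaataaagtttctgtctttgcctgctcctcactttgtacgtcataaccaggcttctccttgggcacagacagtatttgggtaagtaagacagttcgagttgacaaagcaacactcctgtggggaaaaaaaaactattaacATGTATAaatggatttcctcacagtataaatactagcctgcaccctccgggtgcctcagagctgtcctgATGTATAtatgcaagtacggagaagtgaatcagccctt

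Letters were searched on both strands and counted from the start, whose first base is 1 and the base before it -1. Pomc held E-boxes at -200 and -147, and the second of these was also a match to CATCTG, the form known for Neurod1. It held AAGGTCA at -63. An E-box was found in 72.3% of all 32851 promoters of this length, CATCTG in 17.2% and AAGGTCA in 4.72%. The Pou1f1 promoter shown held TATNCAT at -57 and at 13, where 8.84% of all promoters held at least 1 match. Another listed promoter of Pou1f1, from 65523059, held no match to TATNCAT. The T-box half-site TCACAC was not among these letters of Pomc and was found in 14.5% of all promoters. A match describes the letters and is not a binding site.

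The members were measured with few reads. Each value was a whole multiple of the worth of 1 read, and the recovered reads for a member in a library ran from 1 to 80. All 9 genes together had 147 and 274 reads in knockout libraries 13 and 16, against 138, 151 and 118 in control libraries 9, 10 and 12, out of 4480809 to 6143263 reads over listed genes per library. These totals include the ribosomal precursor Rn45s. It held 14.2% and 8.88% of all tags in knockout libraries 13 and 16, against 22.2%, 16.8% and 23.5% in control libraries 9, 10 and 12. Intervals below are exact 95% Poisson intervals of the reads, turned into tags, and cover counting error only.

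The libraries differed in ways that touched the members. Autosomal olfactory and vomeronasal receptor genes, which most tissues do not express, carried 0.472 and 1.497 tags per kilobase in knockout libraries 13 and 16, against 0.258, 0.395 and 0.156 in control libraries 9, 10 and 12. That rate times the length of a region is called the background estimate below. With the deposited values, both knockout libraries lay above every control for 50.2% of the 19313 genes tested and below every control for 0.202%, and the median gene was 0.97 higher on the log2 scale. Values were therefore also divided by TMM factors, which equalize the bulk of genes, and the median gene was then 0.04 higher. The factors were 1.31 and 1.76 in knockout libraries 13 and 16, against 0.607, 0.996 and 0.716 in control libraries 9, 10 and 12. Computed after subtraction of the background estimate, they were 1.508 and 1.001, against 0.6463, 1.089 and 0.9418. The factor of library 16 was thus the highest before subtraction and lay within the controls after it. Where library 16 lies after TMM scaling can therefore depend on how background is treated. Itgb1 itself was at 446.36 and 186.36 in knockout libraries 13 and 16, against 272.73, 426.36 and 430.91 in the controls. Scaled with TMM factors it was at 340.3 and 105.9, against 449.2, 428.2 and 601.5, so library 13 lay above every control before scaling and below every control after it. The Itgb1 region was counted as a whole, so its value does not isolate the deleted part, and the name knockout follows the labels only. The pouch markers fixed for this tissue were present, all 10 of them above 0 in every library, with Pitx1 at 283.64 and 98.18 in knockout libraries 13 and 16, against 97.27, 137.27 and 148.18 in the controls.

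No member passed the test between the genotypes. In limma on log2(TMM-scaled value + 1), adjusted by Benjamini-Hochberg over 19313 genes, 0 of the 9 members and 0 genes in all passed an adjusted p under 0.05, which is 0.0% of the genes tested, and the lowest adjusted p of any gene was 0.767. An unadjusted p under 0.05 was found for 1 member, Gata2, and for 386 genes, or 2.0% of those tested. The edgeR quasi-likelihood test on the recovered reads also called 0 genes, and 478 had an unadjusted p under 0.05 in it. DESeq2 called 25 genes, all lower, or 2.59% of the 965 to which it gave an adjusted p, and it gave none to any member. The median log2 change of the members was -0.43 beside 0.04 for all genes, with 4 members above 0 and 5 below. After TMM scaling both knockout libraries lay above every control for 1 member and below every control for 2, where 8.5% and 6.8% of all genes did so. Pituitary RNA was measured in bulk, so fewer cells of a type and less RNA per cell cannot be told apart.

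**Figure D1:**
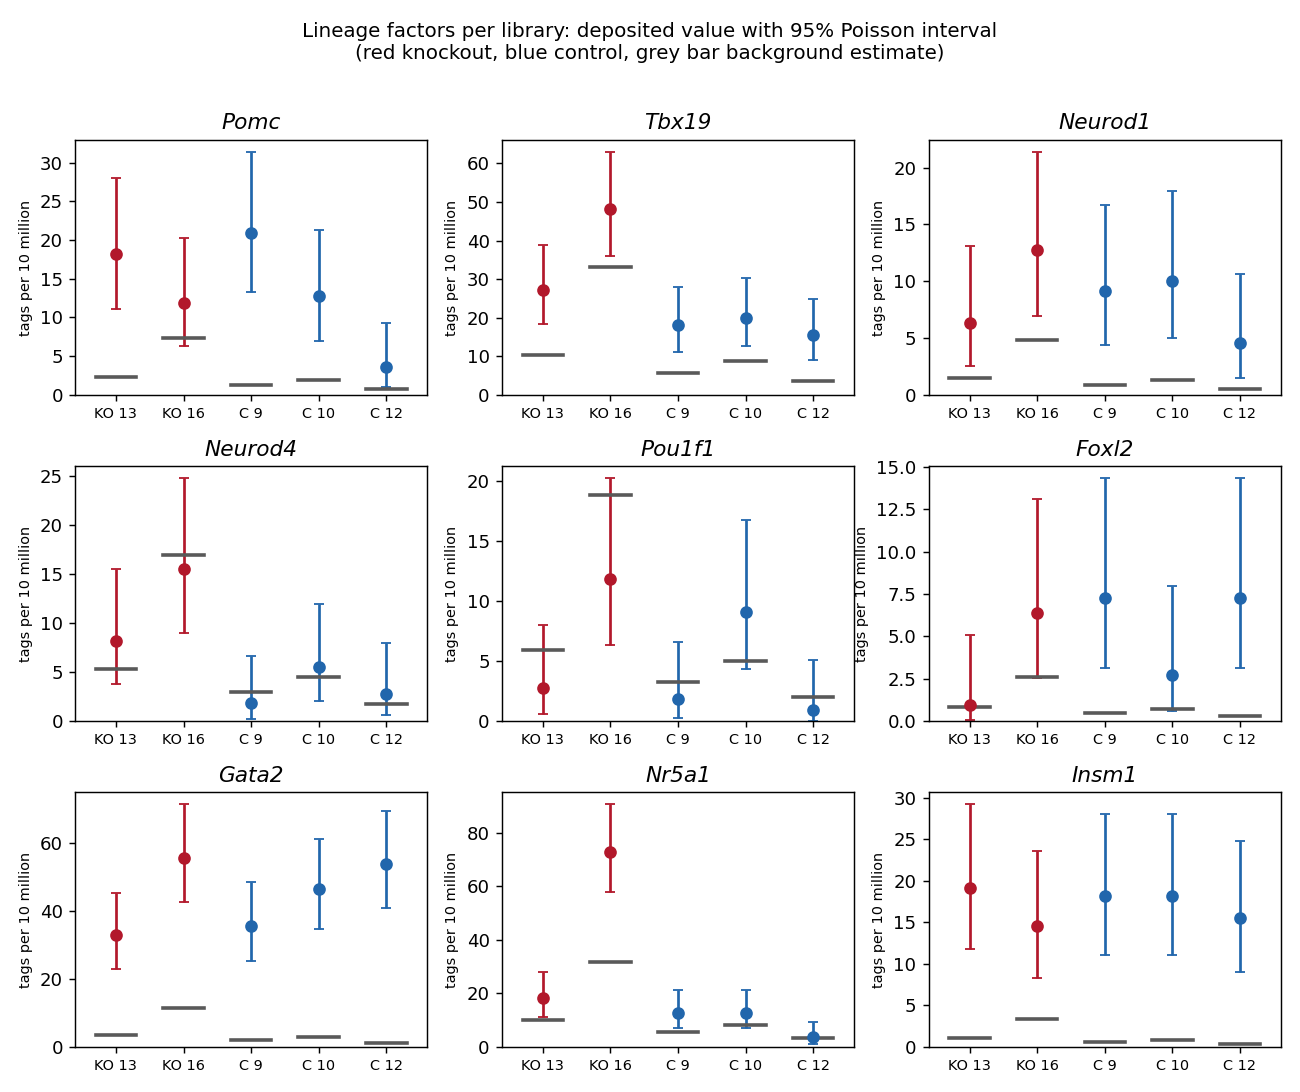
Deposited value of each member in tags per 10000000, with knockout libraries 13 and 16 in red left of control libraries 9, 10 and 12 in blue. Bars are 95% Poisson intervals of the reads and the grey line is the background estimate of the library; Neurod4 and Pou1f1 reach that line within their intervals in all 5 libraries.

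Per kilobase of counted region, Insm1 and Gata2 were the members of highest level. In the controls Insm1 was at 7.77 ± 0.709 tags per kilobase (SD, n = 3) and Gata2 at 5.97 ± 1.21, and their ranges overlapped. Foxl2 followed at 3.35 ± 1.52, Pomc at 2.55 ± 1.78 and Neurod1 at 2.47 ± 0.914, and these did not differ beyond their spread. The highest control of Foxl2, at 4.23, lay below the lowest control of Gata2, at 4.68. Tbx19 was at 0.808 ± 0.104, with every control below every control of Neurod1. Nr5a1 at 0.460 ± 0.249, Pou1f1 at 0.314 ± 0.357 and Neurod4 at 0.295 ± 0.167 overlapped one another. Their levels were close to the background rate of 0.156 to 0.395 tags per kilobase in the same libraries. The regions include introns, so these are levels per length of counted region and not per length of transcript. Each region was shorter than the gene length listed for build GRCm38. Gata2 was at 7.57 of 13.14 kb, Foxl2 at 1.72 of 2.52 kb and Tbx19 at 22.12 of 22.94 kb.

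**Figure D2:**
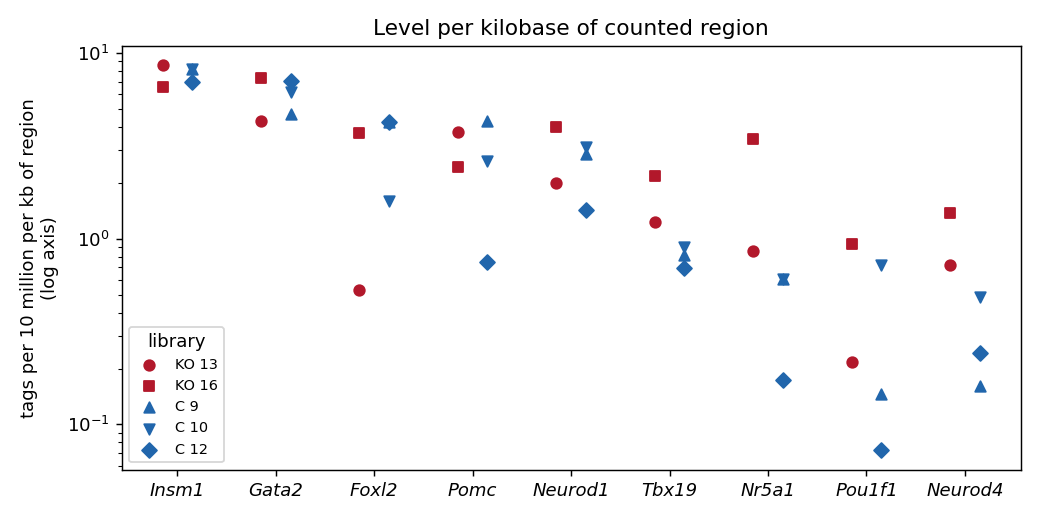
Level of each member per kilobase of counted region on a log axis, knockout libraries in red left of controls in blue, ordered by the control mean. Insm1 and Gata2 lie highest, Nr5a1, Pou1f1 and Neurod4 lowest, and the widest gap between library 16 and the other libraries is that of Nr5a1, at 3.45 tags per kilobase in library 16.

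Pomc (mm9 chromosome 12, 3955751 to 3960618), the earliest hormone gene, varied more among the controls than between the genotypes. It was at 18.18 and 11.82 in knockout libraries 13 and 16, against 20.91, 12.73 and 3.64 in control libraries 9, 10 and 12. Both knockout values thus lay within the controls, of which library 12 held the lowest value, from 4 reads (interval 0.991 to 9.31). The estimate of background was passed by the intervals of 4 libraries. The interval of library 16, from 6.29, took in its background estimate of 7.29. Scaled with TMM factors, Pomc averaged 10.3 in the knockout libraries and 17.4 ± 15.2 (SD, n = 3) in the controls. The log2 change was -0.43 with an SE of 0.74 (limma, adjusted p = 0.845). Leaving out knockout library 16 gave 0.04 and leaving out control library 9 gave 0.20, while leaving out knockout library 13 gave -0.89 and control library 12 gave -1.05, so direction and size rested on single libraries.

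Tbx19 (mm9 chromosome 1, 167068384 to 167090504), the T-box factor that marks corticotrophs, followed the bulk of genes closely. The deposited value was 27.27 and 48.18 in knockout libraries 13 and 16, against 18.18, 20 and 15.45 in the controls. Both knockout libraries thus lay above every control before scaling, as did 50.2% of all genes. After TMM scaling Tbx19 averaged 24.1 in the knockout libraries and 23.9 ± 5.31 (SD, n = 3) in the controls. Its log2 change was 0.02 with an SE of 0.46 (limma, adjusted p = 0.987). Of the 48.18 tags in library 16, 33.1 matched the background estimate of its 22.12 kb region, against 3.45 to 8.73 in the controls. The interval of Tbx19 passed the background estimate in all 5 libraries.

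The ratio of Tbx19 to Pomc within a library needs no scaling between libraries. It was 1.5 and 4.08 in knockout libraries 13 and 16, against 0.869, 1.57 and 4.24 in control libraries 9, 10 and 12. With the background estimate subtracted from both genes it was 1.06 and 3.32 in the knockout libraries, against 0.635, 1.04 and 4.17 in the controls. Both knockout ratios thus fell inside the range of the controls with either treatment.

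Neurod1 (mm9 chromosome 2, 79293198 to 79296393), an early and transient factor of corticotrophs that is also widely used by neurons, had 5 to 14 reads. It was at 6.36 and 12.73 in knockout libraries 13 and 16, against 9.09, 10 and 4.55 in the controls. Library 16 was highest and library 13 lay within the controls before scaling. After TMM scaling the values were 4.85 and 7.23, against 14.97, 10.04 and 6.35, and library 13 lay below every control. Neurod1 had a log2 change of -0.65 with an SE of 0.60 (limma, adjusted p = 0.768). It was -0.40 without knockout library 13 and -0.41 without control library 9. Neurod1 passed the background estimate in all 5 libraries. Its ratio to Pomc was 0.3498 and 1.08 in the knockout libraries, against 0.435, 0.786 and 1.25 in the controls. With background subtracted it was 0.306 and 1.753, against 0.421, 0.809 and 1.41, and library 16 then lay above the controls in place of within them.

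The 10 other genes of the corticotroph list, hormone processing enzymes, receptors and cofactors, gave no call. Their median log2 change was -0.11, with 4 above and 6 below 0. The members of highest level were Smarca4, a chromatin remodelling ATPase, with a log2 change of -0.61, and Etv1, an ETS factor, with -0.76. Etv1 was at 349.09 and 141.82 in knockout libraries 13 and 16, against 112.73, 255.45 and 232.73 in the controls, before scaling highest in library 13 and within the controls in library 16.

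Pou1f1 (mm9 chromosome 16, 65521764 to 65534316) could not be told from background at this depth. It had 2.73 and 11.82 tags in knockout libraries 13 and 16, against 1.82, 9.09 and 0.91 in control libraries 9, 10 and 12. These values came from 3 and 13 reads in the knockout libraries and from 2, 10 and 1 in the controls. The background estimates for its 12.55 kb region were 5.92 and 18.8, against 3.23, 4.96 and 1.96, and every interval took in its estimate. Libraries 16 and 10 were the high ones and those with the higher background rate in their own groups. In the fit its log2 change was 0.11 with an SE of 0.82 (limma, adjusted p = 0.965), and it turned to -0.54 without knockout library 16 and to -0.39 without control library 12.

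Neurod4 (mm9 chromosome 10, 129705608 to 129716896), a basic helix-loop-helix factor that acts with other members of its family in mouse pituitary and neurons, was likewise near background. It was at 8.18 and 15.45 in knockout libraries 13 and 16, against 1.82, 5.45 and 2.73 in the controls, with both knockout libraries above every control. After TMM scaling both still lay above, at 6.24 and 8.78 against 3.00, 5.47 and 3.81. On the log2 scale the change was 0.75 with an SE of 0.62 (limma, adjusted p = 0.767). The background estimates were 5.33 and 16.9, against 2.91, 4.46 and 1.76, and no interval lay above its estimate. With background subtracted, 2.85 and 0 tags were left in the knockout libraries, against 0, 0.994 and 0.969 in the controls, and the groups overlapped.

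The other genes of the Pou1f1 lineage list were at very different levels. Of 9 listed genes 8 were in the table and 7 passed the filter, and none was called. The median log2 change was -0.15, with 3 above and 4 below 0. Gh and Prl, the growth hormone and prolactin genes, were at 0 in at least 1 library. Dlk1, a transmembrane relative of Notch ligands, was at 1063.64 and 240.91 in knockout libraries 13 and 16, against 490.91, 561.82 and 680 in the controls, so before scaling the knockout libraries lay on opposite sides of the controls. Thrb, a thyroid hormone receptor with a region of 376.33 kb, was at 207.27 and 792.73, against 139.09, 208.18 and 90.

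Gata2 (mm9 chromosome 6, 88149458 to 88157026), a zinc finger factor of gonadotrophs and thyrotrophs, was the member with the lowest p. The deposited value was 32.73 and 55.45 in knockout libraries 13 and 16, against 35.45, 46.36 and 53.64 in the controls. Library 13 was thus the lowest of all and library 16 the highest. After TMM scaling Gata2 was at 24.95 and 31.5 in the knockout libraries, against 58.4, 46.6 and 74.9 in the controls, and both knockout libraries lay below every control. The log2 change was -1.04 with an SE of 0.42 (limma, unadjusted p = 0.0305, adjusted p = 0.767). An exact permutation test over the 10 splits, 2-sided, gave p = 0.1, the smallest it can give with these groups. With background subtracted and TMM factors, library 13 stayed below every control at 19.3, while library 16, at 44.1, lay within the controls at 51.8, 39.8 and 55.7. In that setting the change was -0.71 with both knockout libraries and -0.14 without library 13 (limma, adjusted p = 0.813 and 0.732), where the median gene was at -0.15.

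Gata2 is also known in endothelial and blood cells. The 10 endothelial markers had a median log2 change of 0.03, and all 10 were above 0 in every library. After TMM scaling 2 of them, Kdr and Esam, lay below every control in both knockout libraries, where 6.8% of all genes did. With the deposited values 9 of the 10 lay above every control in both, where 50.2% of all genes did. Their summed TMM-scaled level was 704.1 and 987.3 in knockout libraries 13 and 16, against 719.6 to 774.1 in the controls, and Flt1 and Erg, endothelial genes of highest level, had log2 changes of 0.47 and 0.66. The 8 erythroid markers had a median of 0.16 and summed to 229.4 and 374.4, against 315.9 to 643.4 in the controls. Of these, Hba-x and Alas2 had log2 changes of -0.56 and -0.64, and Hbb-bh1 was at 0 in 1 library. The part of these cells in the level of Gata2 was not tested.

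Foxl2 (mm9 chromosome 9, 98856826 to 98858545), a forkhead factor of gonadotrophs and thyrotrophs, rested on at most 8 reads a library. It was at 0.91 and 6.36 in knockout libraries 13 and 16, against 7.27, 2.73 and 7.27 in the controls. Library 13 held 1 read (interval 0.0230 to 5.07) and lay below every control, and library 16 lay within them. Only the intervals of control libraries 9 and 12 passed the background estimate. Its log2 change was -1.54 with an SE of 0.79 (limma, adjusted p = 0.767) and was -0.85 with a pseudocount of 5 and -0.81 without knockout library 13. Foxl2 is known in periocular mesenchyme too, and the 9 head mesenchyme markers had a median log2 change of -0.96, and after TMM scaling 5 of them lay below every control in both knockout libraries, where 6.8% of all genes did. With the deposited values 0 of the 9 did so and 3 lay above every control in both, where 50.2% of all genes did. With background subtracted and TMM factors 5 lay below every control in both, where 8.34% of the genes kept there did. Their summed TMM-scaled level was 922.5 and 448.7 in knockout libraries 13 and 16, against 974.7, 1129 and 1204 in the controls, with none at 0 in any library. Col3a1, a fibrillar collagen, was deposited at 596.36 and 181.82, against 277.27, 553.64 and 432.73, with library 13 above the controls and library 16 below them, and Pdgfra had a log2 change of -0.27. Their part in the level of Foxl2 was not tested.

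Nr5a1 (mm9 chromosome 2, 38548580 to 38569662), the nuclear receptor of gonadotrophs, adrenal, gonad and ventromedial hypothalamus, stood out in library 16. It was at 18.18 and 72.73 in knockout libraries 13 and 16, against 12.73, 12.73 and 3.64 in the controls. Library 16 held 80 reads (interval 57.7 to 90.5 tags), and no other library held more than 20. The background estimate of its 21.08 kb region was 31.6 in library 16, which the interval passed. In that library, 2 of 125 receptor regions of at least 10 kb were as dense as Nr5a1 at 3.45 tags per kilobase, with a median of 1.41 and a range of 0.479 to 4.34. In library 13 the value of 18.18 stood beside an estimate of 9.95. In control libraries 10 and 12 the intervals took in the background.

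After TMM scaling Nr5a1 was at 13.9 and 41.3 in the knockout libraries, against 21.0, 12.8 and 5.08 in the controls, and library 13 lay within the controls. This gave a log2 change of 1.03 with an SE of 0.68 (limma, adjusted p = 0.767). With background subtracted and TMM factors the values were 5.46 and 41.2, against 11.3, 4.05 and 0.374, and the log2 change was 1.91 (limma, adjusted p = 0.813). The change was 0.27 without knockout library 16, 0.53 without control library 12 and 1.78 without knockout library 13, so its size rested on single libraries.

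Of 9 other gonadotroph genes, 8 were in the table and all of these were tested, with no call and a median log2 change of -0.29. Of these, 3 lay above 0 and 5 below, and after TMM scaling both knockout libraries lay below every control for 2, Cga and Isl1, as they did for 6.8% of all genes. With the deposited values they did so for 0 of the 8 and lay above every control for 4, where 50.2% of all genes did. Cga, the shared subunit of the glycoprotein hormones, was deposited at 8.18 and 70 in knockout libraries 13 and 16, against 31.82, 107.27 and 55.45 in the controls, so library 16 lay within them. It lay within them too with background subtracted and TMM factors, at 50.82 against 44.14, 93.87 and 56.76. Nr0b1, a partner of Nr5a1 known from mouse gonadotrophs and adrenal (chosen after its values were seen), was at 0.91 and 5.45, against 4.55, 4.55 and 1.82. With background subtracted and TMM factors Nr0b1 was at 0 and 0.406, against 5.70, 2.96 and 1.37. Its level in library 16 was thus close to background and cannot be set beside that of Nr5a1. Gnrhr was at 20.91 in library 16, against 3.64, 6.36 and 0 in the controls, and at 0 there with background subtracted. Smad3 and Esr1, the members of highest level, had log2 changes of -0.30 and 0.86, and Fshb and Gnrhr were at 0 in at least 1 library. The region of Esr1 spans 390.92 kb. With background subtracted and TMM factors Esr1 was at 9.1 and 227.5 in libraries 13 and 16, against 38.4, 11.1 and 2.84 in the controls.

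Insm1 (mm9 chromosome 2, 146048533 to 146050754) was the steadiest member before scaling. It was at 19.09 and 14.55 in knockout libraries 13 and 16, against 18.18, 18.18 and 15.45 in control libraries 9, 10 and 12. Library 13 was thus the highest and library 16 the lowest of 5 close values, from 16 to 21 reads each. Without further scaling the log2 change was -0.04 for Insm1 and -0.06 for Gata2. As the bulk of genes was higher in the knockout libraries, TMM scaling placed Insm1 at 14.6 and 8.27 there, against 29.9, 18.3 and 21.6 in the controls, below every control in both. The log2 change was -0.99 with an SE of 0.51 (limma, adjusted p = 0.767), and the exact permutation test, 2-sided, gave p = 0.1, the smallest possible. Its short region of 2.22 kb has a background estimate of 1.05 and 3.33 in the knockout libraries, against 0.347 to 0.877 in the controls. With background subtracted and TMM factors both knockout libraries still lay below every control, at 11.96 and 11.2 against 27.2, 15.9 and 16.04, as they did for 8.34% of the 14569 genes kept there. The change was -0.68 in that fit (limma, adjusted p = 0.813).

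The ratio of Gata2 to Insm1 was 1.72 and 3.81 in knockout libraries 13 and 16, against 1.95, 2.55 and 3.47 in the controls. Library 13 lay below the controls and library 16 above them, from 36 Gata2 and 21 Insm1 reads in library 13 and 61 and 16 in library 16. The ratio of Insm1 to Neurod1 was 3.00 and 1.14, against 2.00, 1.82 and 3.40. Library 16 lay below the controls, from 16 Insm1 and 14 Neurod1 reads. No interval was computed for these ratios, so a change of proportion cannot be told from counting error.

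**Figure D3:**
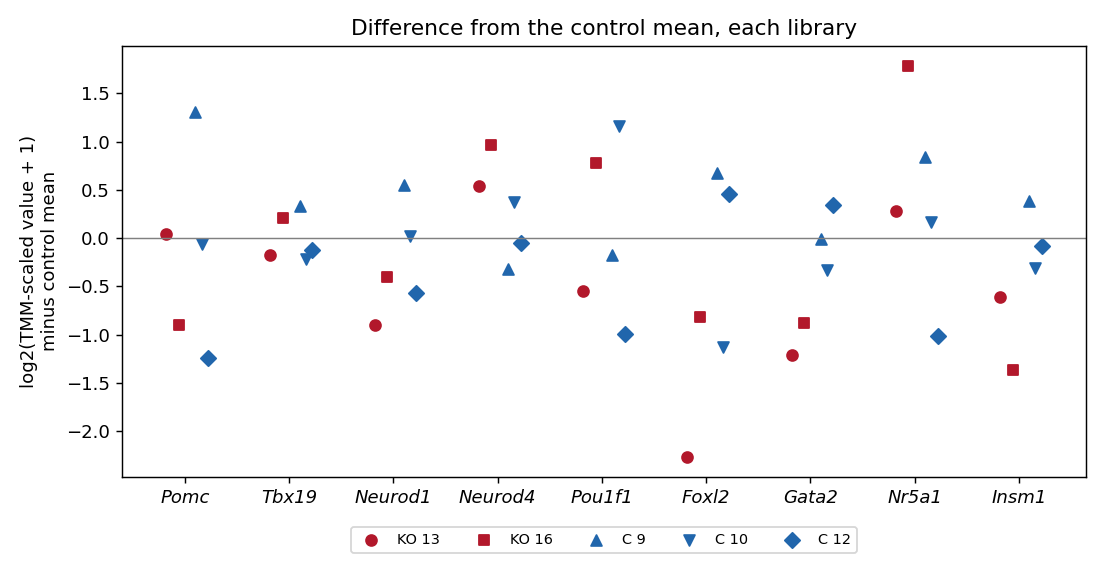
Difference of each library from the control mean, as log2(TMM-scaled value + 1), knockout libraries 13 (circles) and 16 (squares) in red left of the 3 controls in blue. Both knockout libraries lie below every control for Gata2 and Insm1 and above every control for Neurod4, where no interval passed the background estimate.

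The neuroendocrine genes that share a role with Insm1 did not move as a group. Of 11 measured genes none was called, 6 lay above and 5 below 0, and the median log2 change was 0.12. Against the control mean the median was -0.31 in library 13 and 0.64 in library 16, so the knockout libraries went opposite ways. In both knockout libraries the scaled levels of Chga and Scg2, which encode granule proteins, were under all 3 controls, with log2 changes of -2.26 and -1.64, where 6.8% of all genes lay so. With background subtracted and TMM factors Scg2 in library 16, at 227.5, lay within the controls at 248.6, 306.4 and 196.2. Chga was at 9.09 and 74.55 in knockout libraries 13 and 16, against 44.55, 93.64 and 70.91 in the controls, while Insm1 in library 13 was at the level of the controls before scaling. St18, a zinc finger factor of endocrine cells and neurons with a long region, had a log2 change of 0.40, and Insm2 was at 0 in at least 1 library.

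Insm1, Neurod1 and Neurod4 also act in neurons, Nr5a1 in the ventromedial hypothalamus and Pomc in the arcuate nucleus. The 16 hypothalamic and neuronal markers, all above 0 in every library, had a median log2 change of -0.47, and after TMM scaling 7 lay below every control in both knockout libraries, where 6.8% of all genes did. With the deposited values 4 did so, where 0.202% of all genes did, and 3 lay above every control. Their summed TMM-scaled level was 1145 and 926.4 in knockout libraries 13 and 16, against 1753, 1715 and 1758 in the controls, and thus below every control in both, as for Insm1 and Gata2 on that scale. The deposited values summed to 1502 and 1631, against 1065, 1707 and 1259, and overlapped. Fgf10, made by the infundibulum, had a log2 change of -2.11 and the neuronal Map2 one of -0.77. None of them was called. Their part in the levels of the members was not tested.

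Other lists gave the setting. The 10 pouch progenitor genes had a median log2 change of -0.80, with medians of 0.34 in library 13 and -1.93 in library 16 against the control mean. Pitx1, the progenitor gene of highest level, had a log2 change of -0.59. The 9 lineage factors, by contrast, had medians of -0.55 in library 13 and -0.41 in library 16; no test of that difference was run. Oral epithelium genes (7 measured) had a median of 0.87, with Trp63 at 0.86 and Dsg3 at 1.29, from regions of 207.52 and 30.21 kb. With background subtracted and TMM factors Dsg3 was at 0.197 and 18.4 in knockout libraries 13 and 16, against 0 in each control. Trp63 was then at 24.3 and 93.9, against 10.2, 13.3 and 12.9. Skeletal muscle genes (7 measured) had a median of 0.53, with Ttn at 0.53 and Myh3 at 0.44. Neither list had a called gene.

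**Figure D4:**
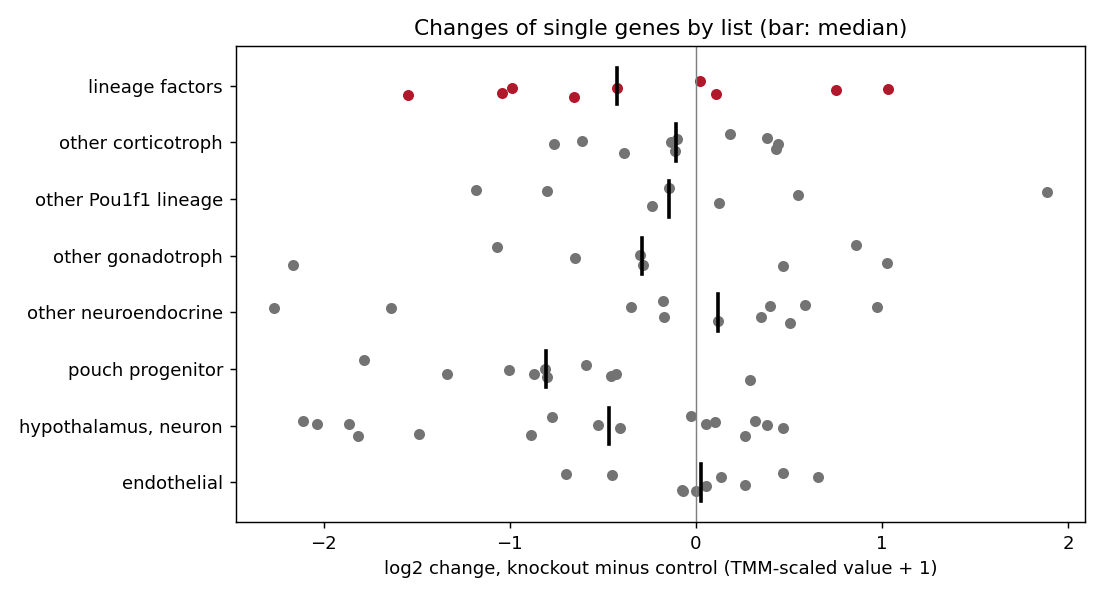
Log2 change of single genes, knockout minus control, for the lineage factors in red and 7 other lists in grey, with the median of each list as a bar. The lineage factors spread from -1.54 for Foxl2 to 1.03 for Nr5a1 around a median of -0.43.

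Genes with profiles most like those of 4 members were sought among 10985 named genes with a mean of at least 20 tags. Likeness was the root mean square difference of centred log2 profiles over 5 libraries. Pomc was most like Pttg1, Tubb3 and Meis3, at 0.264, 0.357 and 0.442, beside a median of 0.970 over these genes. Tubb3, a neuronal tubulin, was at 48.18 and 34.55 in knockout libraries 13 and 16, against 44.55, 31.82 and 18.18 in the controls, with library 12 the lowest as for Pomc. Tbx19 was most like Micall1, Tom1 and Phf21b, at 0.035, 0.048 and 0.049, beside a median of 0.514. Neurod4 was most like Mageb16, Itgb6 and Smim3, at 0.053, 0.088 and 0.105, beside a median of 0.644. Pou1f1 was most like Rufy4, Hs3st3b1 and Slc25a43, at 0.235, 0.295 and 0.298, beside a median of 0.946. The regions of the genes most like Neurod4 spanned 47.4, 123.51 and 26.99 kb, and those of the genes most like Pou1f1 21.89, 36.79 and 32.74 kb, with the highest value in library 16 in each case. These points share libraries and background, and few reads stand behind Pomc, Neurod4 and Pou1f1.

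The authors' deposited table of changed genes, with 1140 rows, listed 0 of the 9 members. It listed 10 of the 116 genes of all lists used here. Their log2 folds in the authors' deposited table, knockout over control, ran from -1.63 to 2.58. Which libraries the authors compared in it is not stated.

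A test with 1 knockout library gave calls for members only in library 16. When library 13 was left out, quasi-likelihood testing of recovered reads in edgeR called 3 of the 9 members, Nr5a1 higher (adjusted p = 0.00336) and Gata2 and Insm1 lower (adjusted p = 0.0392 and 0.0283), where 41.7% of all genes were called. The limma test on background-subtracted values without library 13 called 0 members and 25.3% of all genes, with Gata2 at -0.14, Nr5a1 at 3.21 and Insm1 at -0.71 (adjusted p = 0.732, 0.111 and 0.295). The limma test without library 13 called 0 members and 12.6% of all genes. Without library 16, both tests called 0 members and 0.0159% of all genes, and the log2 changes in limma were -1.20 for Gata2, -0.61 for Insm1 and -2.17 for Foxl2. In each of these fits the lone knockout library is assumed to vary like the controls.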

How the data were processed

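RNA was measured in 5 libraries, made after ribosomal depletion (Ribo-Zero) with a kit that keeps strand (ScriptSeq v2) and run on an Illumina HiSeq, per the labels' protocols. Tools named in the submitters' processing notes, without roles, are Bowtie2, HOMER and edgeR, with build mm9. For all genes the authors deposited a signal, in tags per 10000000 total tags of a library, per the file headers. Their second deposited table, of changed genes, gives a log2 fold change, 2 linear fold columns (a ratio each), a p-value whose adjustment is not stated and a score per genotype whose unit is not stated. Of several regions with 1 gene name the longest was kept. Dividing by 10/11 gave whole reads (within 0.01) for 100.0% of values, and these were used as recovered reads. The same step in each library implies 11000000 total tags in all 5, which the sources used here do not explain. Intervals and count tests assume that 1 step is 1 read.

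The test was limma 3.58.1 (under R 4.3.3), with its trend option, on the log2 of the TMM-scaled value + 1, for genes with a mean of at least 1, 2 knockout against 3 control libraries, Benjamini-Hochberg adjusted at 0.05. Fold changes on this scale understate changes of low genes. edgeR 4.0.16 and DESeq2 1.42.0 on recovered reads were alternatives, beside other factors, filters, pseudocounts, summed regions, subtraction of a background from 405 receptor genes with a floor of 0, and leaving out each library. The steps were tested on simulated data. The table gives plus as the strand of every region, and reads of antisense partners cannot be told apart. Members, lists, the choice of TMM factors and the background correction were chosen with earlier results of these data known. Named genes were all members, the 2 of highest mean level per other list, Cga, Chga and Scg2, and the 3 of most alike profile for 4 members. A gene that this rule names is not reported here.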

Additional observations from a re-analysis of the deposited data

How the results depend on the processing

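No paired analysis was possible because the groups share no replicate number. Of 152 values of members under alternatives, 133 kept their direction and their side of the threshold, 16 turned direction and 3 passed the threshold. Foxl2, Gata2, Nr5a1, Insm1 and Neurod4 kept their direction in every alternative that tested them, but Gata2 was at -0.14 with background subtracted and without library 13, which is 0.014 relative to the median gene there. With the deposited scaling, where the median gene was 0.97 higher, Pomc was at 0.49 and Neurod1 at 0.24; relative to that median they were at -0.48 and -0.73. With background subtracted and TMM factors Tbx19 was at -0.071, and Neurod4, Pou1f1 and Foxl2 fell under the filter. In the edgeR quasi-likelihood test Pou1f1 was at -0.079. Leaving out each library gave -1.05 to 0.20 for Pomc, -0.17 to 0.21 for Tbx19 and -0.54 to 0.76 for Pou1f1. DESeq2 called 25 genes among the 965 to which it gave an adjusted p, none of them a member. Leaving out each library, limma called between 0 and 2426 genes, the highest number without knockout library 13 and 3 without knockout library 16.

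Chosen after seeing the data, fits that combined these choices with 1 knockout library called 3675 genes (background subtracted, without library 13), 3 (background subtracted, without library 16), 8047 (quasi-likelihood, without library 13) and 3 (quasi-likelihood, without library 16). The quasi-likelihood test without library 13 called 3 members and each of the other fits called 0. With background subtracted, Neurod1 was at 0.037 without library 13, and Pomc and Tbx19 were at 0.046 and -0.27 without library 16. In the quasi-likelihood test without library 16, Tbx19 was at -0.18 and Pou1f1 at -1.19. Why the counts differ was not tested. Depth limits all members, with 1 to 80 reads a library.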
